A study of Mus musculus with 18 samples.

Results

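The DYRK, CLK and HIPK kinases are related protein kinases, and 10 of their genes were followed across the mouse dendritic cells (DCs) of this study. They are a list of names, Dyrk1a, Dyrk1b, Dyrk2 and Dyrk3, Clk1, Clk2, Clk3 and Clk4, and Hipk1 and Hipk2, drawn up with earlier results of these data known. Hipk3 and Hipk4 belong to the same family but not to the list, and are described with the closest kinases. Each member had 1 row among the 29875 genes of the count matrix, and all 10 passed the filter on low counts that left 13844 genes to be tested. Dyrk3 is the gene that the study took forward from these same libraries, so its own values are given as a description with no test, and counts of members that passed are over the other 9. The question put to the other 9 members was whether they followed Dyrk3.

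The DYRK kinases activate themselves by phosphorylating a tyrosine of their own and then phosphorylate serines and threonines of other proteins. DYRK3 is known for dissolving membraneless condensates, among them splicing speckles, stress granules and material around the centrosome. The CLK kinases phosphorylate SR proteins, the serine- and arginine-rich splicing factors, and thereby release them from speckles, while the HIPK kinases act in the nucleus on transcription factors and corepressors.

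DCs were grown from the bone marrow of wild-type C57Bl6/J mice aged 8 to 12 weeks and matured for 24 h with LPS at 200 ng/ml. All 18 libraries came from such LPS-matured cells, and RNA was taken 5 h after the CCL19 gradient was set up. In 4 groups the DCs sat in collagen gels of 1.7, 2.6, 3.5 or 4.4 mg/ml with CCL19, and in 2 groups they were in suspension, titled as with or without CCL19. Each group had 3 replicates. The titles and the library names of the suspension libraries contradict each other on CCL19, so both groups served together as the reference and no direction was given to their difference. Gel cells and suspension cells differ in matrix and in migration at once. All gels had CCL19, while the suspension libraries were split between with and without it, by titles as by library names. In the comparison of gels with suspension, matrix, migration and CCL19 cannot be told apart. The titles number the replicates as biological, but nothing in the labels says that each came from a separate mouse. The p-values therefore measure the spread between these libraries.

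Total counts ran from 13062944 to 28059839 per library, and at the smallest total a count of 3 equals 0.23 CPM (read counts scaled to a common library size). Replicates 1 and 2 carried Xist at 29.3 to 229 CPM with Y-linked genes near 0, although the study describes male mice. Replicate 3 had Xist at 0 and 4 Y-linked genes summing to 54.7 to 183 CPM, and this held in every group alike. Replicate 3 therefore came from other animals than replicates 1 and 2, which the labels do not tell apart by mouse. The names of same-numbered libraries carry a common date, so replicate was also fitted as a block, and that value is given where it changed a call. Genes known from DCs were present throughout, with 0 of 9 at 0 in all libraries, and 1 of the 9 was lower in the gels. Of 10 neutrophil genes 3 were lower in the gels, and of 8 tested eosinophil genes all 8 were lower, with summed eosinophil levels that had group medians of 36.5 to 60 CPM in gels against 357 CPM in suspension. The part of other cells in the results below was not tested, and in bulk RNA fewer cells of a type and less RNA per cell cannot be told apart.

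The sequences before the start sites of 3 members are shown because these members moved with or against Dyrk3 in the results that follow. They were copied from RefSeq for mouse build GRCm38.p6 and trimmed to bases that lie in no annotated exon. Dyrk3 lies on the minus strand at chr1:131127455-131138340, and the stretch before it is chr1:131138341-131138484. Hipk1 lies on the minus strand at chr3:103739815-103791563, and its stretch is chr3:103791564-103791811. Clk2 lies on the plus strand at chr3:89164795-89176921, and its stretch is chr3:89164545-89164794. Capitals mark matches on either strand to 6 motifs, namely the TATA box (TATAAA), the CCAAT box (its letters), the GC box (GGGCGG), the cyclic AMP response element (TGACGTCA), the AP-1 site (TGANTCA) and the core of the hypoxia response element (ACGTG).
Dyrk3: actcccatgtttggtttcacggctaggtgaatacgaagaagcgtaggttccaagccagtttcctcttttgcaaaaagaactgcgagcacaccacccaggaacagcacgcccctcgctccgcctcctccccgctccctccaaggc
Hipk1: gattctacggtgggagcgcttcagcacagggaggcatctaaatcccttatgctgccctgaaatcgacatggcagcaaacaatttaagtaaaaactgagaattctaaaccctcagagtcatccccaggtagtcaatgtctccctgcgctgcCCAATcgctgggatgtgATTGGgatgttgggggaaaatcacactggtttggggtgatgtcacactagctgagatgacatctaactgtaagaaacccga
Clk2: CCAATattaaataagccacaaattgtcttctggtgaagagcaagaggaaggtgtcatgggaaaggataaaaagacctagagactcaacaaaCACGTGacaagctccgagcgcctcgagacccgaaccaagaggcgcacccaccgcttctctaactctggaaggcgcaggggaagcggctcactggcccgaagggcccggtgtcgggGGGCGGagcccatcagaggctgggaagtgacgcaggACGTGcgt

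The Dyrk3 stretch of 144 bases held none of the 6 motifs, nor did its full window of 250 bases. The Hipk1 stretch held 2 CCAAT boxes in opposite orientations, and 33.8% of 32817 windows of 250 bases held at least 1. It comes from the further upstream of 2 RefSeq windows of Hipk1. The other, at chr3:103791276-103791525, held none of the 6 motifs. The Clk2 stretch held 1 CCAAT box, 1 GC box (GGGCGG, in 32.7% of windows) and 3 matches to ACGTG (in 16.6% of windows), of which 2 overlap in the palindrome cacgtg. Clk4 was the only member window with the cyclic AMP response element, which 1.55% of windows held. It starts 65 bases before the RefSeq start of Clk4, within these 30 bases at chr11:51263038-51263067 on the plus strand, where other annotated transcripts of the gene begin further upstream.
Clk4: cccgccgtcccTGACGTCAcagacccctcg

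RefSeq windows were found for 9 of the 10 members. A match of letters describes the sequence and says nothing of which factor acts there.

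Among the DYRK kinases, Dyrk3 had the lowest mean CPM in every group and the largest fitted difference between gel and suspension. In suspension its level was 1.1 to 3.79 CPM over 6 libraries, with a median of 1.92 CPM. It read 5.47, 3.91 and 1.47 CPM in replicates 1, 2 and 3 at 1.7 mg/ml, and 6.42, 6.80 and 5.17 CPM at 2.6 mg/ml. It read 7.82, 6.81 and 3.80 CPM at 3.5 mg/ml and 12.9, 13.9 and 8.64 CPM at 4.4 mg/ml. The 3 libraries of the densest gel lay above all 6 suspension libraries, as they did for 4.93% of all genes. Replicate 3 of the loosest gel lay inside the suspension range. Between 19 and 287 reads per library stand behind these levels. The fitted log2 difference was 1.66 between all gels and suspension and 2.56 between 4.4 mg/ml and suspension. Per mg/ml of collagen the fitted log2 slope was 0.57.

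Dyrk1a, a kinase of neural development and of the calcineurin and NFAT pathway, showed a smaller difference in the same direction. Its level in suspension was 27.4 to 80.2 CPM with a median of 48.8, and in the 12 gel libraries it was 49.6 to 103 CPM with a median of 70.7. The 2 ranges overlapped. Within each replicate the gel mean exceeded the suspension mean, by 0.18, 0.52 and 1.02 on the log2 scale. Dyrk2 also had the same sign in every replicate, with 0.16, 0.06 and 0.77, and Dyrk1b had a negative sign in every replicate. The share of all genes with the same sign in every replicate is not given here. The log2 difference was 0.50 ± 0.22 (SE) with an adjusted p of 0.144 in edgeR's quasi-likelihood test, and it did not pass the threshold of 0.1. With replicate as a block it was 0.54 ± 0.18 with an adjusted p of 0.0314, and 34.8% of all genes passed in that fit. That call was lost on leaving out replicate 2 of the suspension titled with CCL19 or replicate 3 of the suspension titled without it, with adjusted p up to 0.11.

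Dyrk1b, which promotes quiescence and is the closest relative of Dyrk1a, pointed the other way from Dyrk3 without passing. Its level was 20.6 to 56 CPM in suspension and 12 to 47.7 CPM in the gels, and the ranges overlapped. Between gels and suspension it differed by a log2 value of -0.28, with a 95% interval from -0.77 to 0.21 and an adjusted p of 0.466. Its 3 libraries titled with CCL19 read 56.0, 47.4 and 38.6 CPM, and the 3 titled without it read 28.3, 20.6 and 23.3 CPM. These 2 suspension groups did not overlap in Dyrk1b, nor did they in 13.6% of all genes. The unadjusted p of their difference was 0.0212 and the adjusted p 0.761.

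Dyrk2, a kinase that phosphorylates p53 and serves as a scaffold of a ubiquitin ligase, did not pass. It read 9.1 to 28.4 CPM in suspension and 12.4 to 32.2 CPM in the gels. Its log2 difference was 0.26, with a 95% interval from -0.37 to 0.89 and an adjusted p of 0.616. The interval holds both 0 and the value fitted for Dyrk1a.

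**Figure D1:**
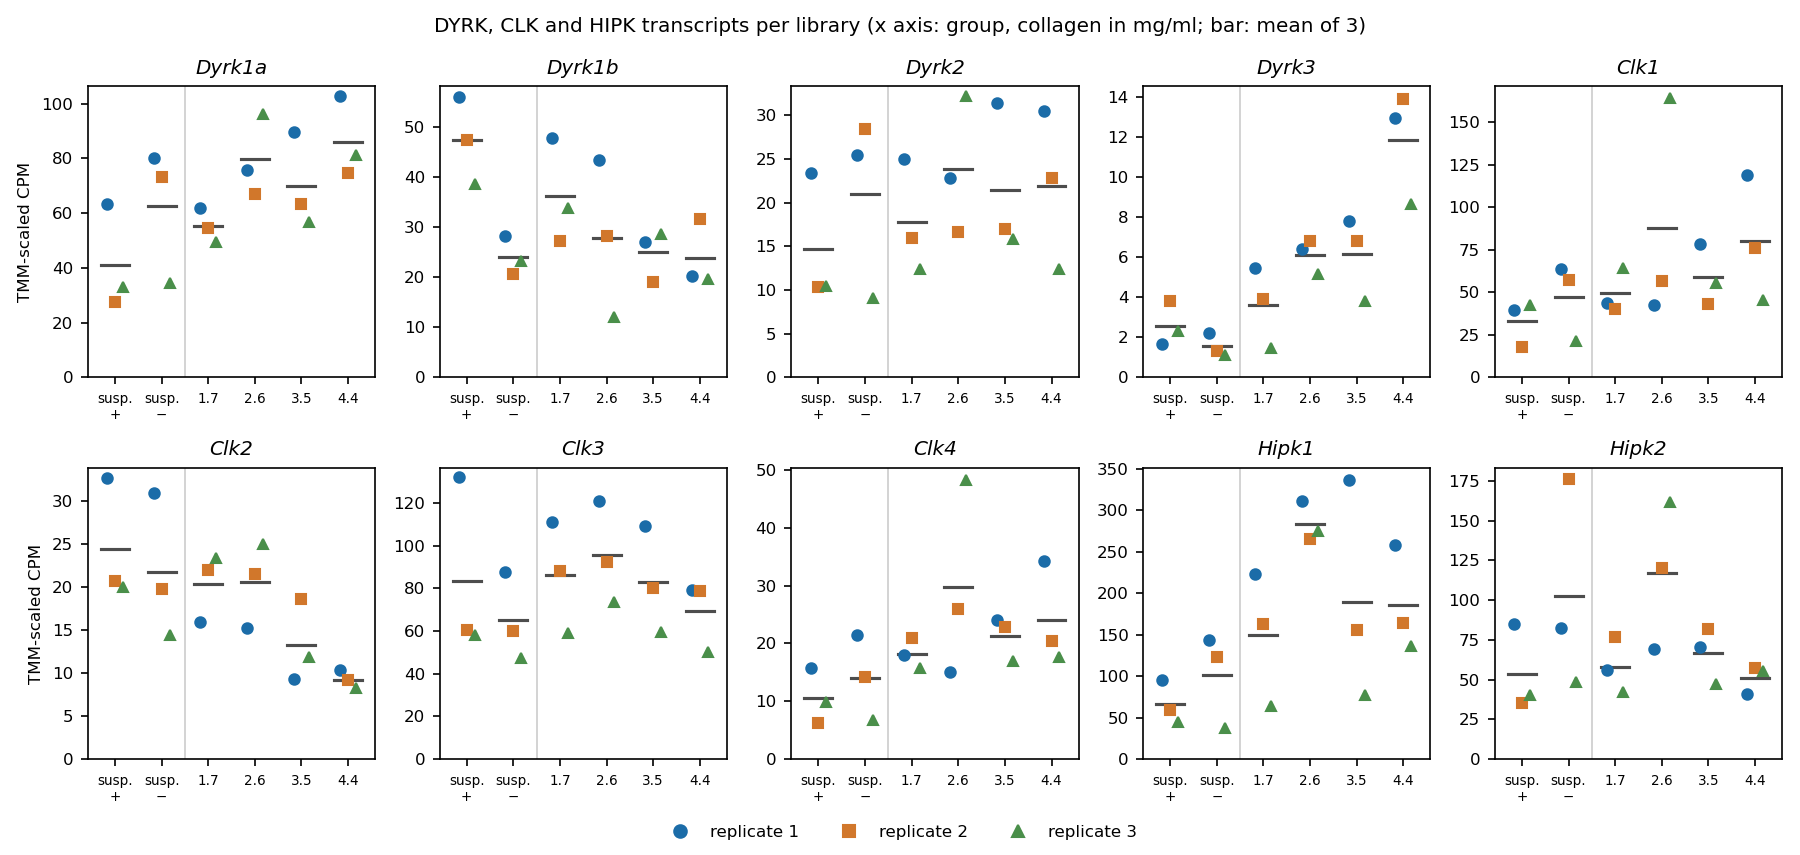
Normalised level (TMM-scaled CPM, linear axis from 0) of each member in the 18 libraries; the x axis gives the group (susp. + and susp. − are suspension titled with and without CCL19, numbers are collagen in mg/ml), symbols give the replicate and bars the mean of 3. At 4.4 mg/ml Dyrk3 lies at 8.64 to 13.9 CPM and above all suspension libraries, while Clk2 lies at 8.29 to 10.3 CPM and below all of them. Of all genes, 4.93% lie wholly above and 9.25% wholly below suspension at this density.

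Per kilobase of exon the balance among the 4 DYRK genes also moved towards Dyrk3. Dyrk3 held 2.86% ± 1.26 (SD, n = 6) of their summed CPM per kilobase in suspension, and 4.59%, 7.60%, 8.40% and 13.9% on average in gels of rising density. At 4.4 mg/ml its share was 14.1%, 15.2% and 12.5% in the 3 replicates. Without division by exon length the mean share was 8.21% there and 2.08% in suspension. Its level per kilobase at 4.4 mg/ml, 3.72 ± 0.883 CPM (SD, n = 3), lay within the spread of Dyrk2 at 3.51 ± 1.46, whereas in suspension it lay below, at 0.649 ± 0.306 against 2.86 ± 1.41 (SD, n = 6). Dyrk1b, the most abundant of the 4 per kilobase in suspension, held 57.2% ± 15.3 there and 33.2% ± 7.35 (SD, n = 3) at 4.4 mg/ml. The summed level of the 4 was 23.0 ± 5.93 CPM per kilobase in suspension and 26.5 ± 4.05 at 4.4 mg/ml, a difference within the SD of either. These shares use the union of annotated exons as the length, and the matrix does not resolve isoforms.

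Of the 9 relatives, 3 passed the threshold between all gels and suspension, 2 higher and 1 lower, beside 20.2% of all genes tested (7.78% higher and 12.4% lower). The 3 were Hipk1 and Clk4, which were higher in gels, and Clk2, which was lower. The median log2 difference of the 9 was 0.26, against 0.00 over all genes, and 6 of the 9 were positive against 50.2% of all genes. With replicate 2 left out none of these 3 calls held, and without replicate 1 or 3 the passes were 3 and 2 of the 9. The share of all genes that passed in these smaller fits is not given here. The log2 difference of Hipk1 was not smaller without replicate 2, so the lost calls alone do not show that they rested on that replicate. With the replicate block 5 of the 9 passed, 4 higher and 1 lower, beside 34.8% of all genes (15.6% higher and 19.3% lower).

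Hipk1, a nuclear kinase that acts on p53 and on homeodomain transcription factors, gave the clearest rise among the relatives. In replicate 1 it read 96.0 and 144 CPM in the 2 suspension libraries and 223, 311, 336 and 258 CPM in gels of rising density. In replicate 2 it read 59.8 and 123 CPM in suspension and 162, 266, 156 and 164 CPM in the gels. In replicate 3 it read 44.5 and 37.4 CPM in suspension and 64.4, 275, 77.2 and 136 CPM in the gels. All 4 gel libraries therefore lay above both suspension libraries within each replicate, as they did for 2.43% of all genes, although the 12 and the 6 overlapped when replicates were pooled.

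The log2 difference of Hipk1 was 1.26 ± 0.36 (SE), with an adjusted p of 0.0283 in edgeR. Within the replicates it was 1.25, 1.09 and 1.51. It passed on leaving out any single library, with log2 differences from 1.06 to 1.47, and missed the threshold with all of replicate 2 left out (1.38, adjusted p = 0.234). Hipk1 differed between the replicates themselves with an adjusted p of 0.000935, and 48.3% of all genes did so. An antisense gene, Gm15886, shares 729 of its exon bases, and the kit keeps strand, but how the counting used strand is not given in the sources used here.

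Over density the fitted slope of Hipk1 was smaller than that of Dyrk3, but the slopes of these genes were not compared by a test. Per mg/ml of collagen its log2 slope was 0.04, with a 95% interval from -0.37 to 0.45. Its highest mean was at 2.6 mg/ml, where the log2 difference from suspension was 1.79 with an adjusted p of 0.0465. At 3.5 and 4.4 mg/ml the differences were 1.21 and 1.18 with adjusted p of 0.182 and 0.118. With the replicate block they were 1.11 and 1.26 with adjusted p of 0.0142 and 0.00278, where 18.4% and 31.9% of all genes passed. The blocked call at 3.5 mg/ml was lost without replicate 1 of that gel, with an adjusted p of 0.161.

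Hipk2, the relative that drives p53-dependent cell death, showed no such rise. It read 35.3 to 176 CPM in suspension with a median of 65.6, and 40.7 to 162 CPM in the gels with a median of 63.1. Its log2 difference was -0.10, with a 95% interval from -0.68 to 0.49 and an adjusted p of 0.858, and the sign differed between replicates. Its highest suspension value came from 1 library, replicate 2 titled without CCL19, at 176 CPM against 85.1 CPM in the next. Of the sum of Hipk1 and Hipk2, which leaves out Hipk3, Hipk1 took a larger share in the gels, with 47.6% ± 9.38 (SD, n = 6) per kilobase in suspension and 73.4% ± 9.13 (SD, n = 3) at 4.4 mg/ml. Within each replicate the Hipk1 share was higher in every gel than in both suspension libraries.

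The CLK family split. Clk4 rose and Clk2 fell, Clk1 leaned the way of Clk4, and Clk3 did not pass.

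Clk4 read 6.22 to 21.5 CPM in suspension with a median of 12.0, and 15.1 to 48.3 CPM in the gels with a median of 20.8. The lower end of the gel range lay inside the suspension range, and replicate 1 of the 2.6 mg/ml gel at 15.1 CPM was below replicate 1 of both suspension groups, at 15.8 and 21.5 CPM. The log2 difference was 0.90 ± 0.30 (SE) with an adjusted p of 0.0527. Within replicates it was 0.24, 1.25 and 1.41, so replicate 1 carried little of it. The call was lost on leaving out replicate 2 or 3 of the suspension titled with CCL19 or replicate 3 of the other suspension group, with adjusted p up to 0.141, and held in all 18 such fits with the replicate block. The slope over density was 0.08 per mg/ml, with a 95% interval from -0.26 to 0.42.

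Clk1, the closest relative of Clk4, read 17.6 to 63.8 CPM in suspension and 40.1 to 164 CPM in the gels. Its highest value, 164 CPM, was replicate 3 at 2.6 mg/ml, the same library that gave the highest Clk4. The log2 difference was 0.76 ± 0.33 (SE) with an adjusted p of 0.141, and with the replicate block 0.75 ± 0.30 with an adjusted p of 0.0747. The blocked call held in 12 of 18 fits that each left out 1 library and was lost in the others, with adjusted p up to 0.187. Clk1 and Clk4 are close paralogs, the reads were 50 bases long, and how reads with several matches were counted is not given in the sources used here.

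Clk2, a kinase of splicing and of insulin-controlled metabolism in liver, moved against Dyrk3. In suspension it read 32.6, 20.7 and 20.0 CPM in the replicates titled with CCL19 and 30.9, 19.8 and 14.4 CPM in those titled without it. It read 15.9, 21.9 and 23.3 CPM at 1.7 mg/ml and 15.2, 21.5 and 24.9 CPM at 2.6 mg/ml. It read 9.26, 18.5 and 11.8 CPM at 3.5 mg/ml and 10.3, 9.13 and 8.29 CPM at 4.4 mg/ml. In the 2 looser gels replicates 2 and 3 lay above both suspension libraries of their number, while in the densest gel all 3 libraries lay below all 6 of suspension.

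At 4.4 mg/ml the log2 difference of Clk2 was -1.32 ± 0.32 (SE) with an adjusted p of 0.0170 in edgeR, where 14.8% of all genes passed. Replicates 1, 2 and 3 gave -1.62, -1.14 and -1.02, and the call held in all 18 fits that each left out 1 library. It was lost with all of replicate 2 left out, at -1.38 with an adjusted p of 0.204. Libraries that lay wholly below suspension at this density were found for 9.25% of all genes and wholly above for 4.93%, so Clk2 shares its pattern with many genes.

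Over all gels the Clk2 difference was -0.61 ± 0.21 (SE) with an adjusted p of 0.0612. This value rested on replicate 1, which gave -1.36 against -0.26 and -0.13 in the others. Without replicate 1 it was -0.16 with an adjusted p of 0.740. It was also lost on leaving out replicate 1 of either suspension group (adjusted p up to 0.197) and when an offset for GC content and length was fitted (-0.34, adjusted p = 0.357), where 20.8% of all genes passed.

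Clk3, the most abundant CLK kinase per kilobase in suspension, read 47.5 to 132 CPM there and 50.2 to 121 CPM in the gels. Its log2 difference was 0.17, with a 95% interval from -0.32 to 0.66 and an adjusted p of 0.678. With GC and length offsets and the replicate block together it was 0.46 with an adjusted p of 0.00356, beside 37.4% of all genes. Clk3 differed between replicates with an adjusted p of 0.000713, with the highest values in replicate 1 in all groups, and 1284 of its exon bases are shared with Edc3 on the opposite strand.

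**Figure D2:**
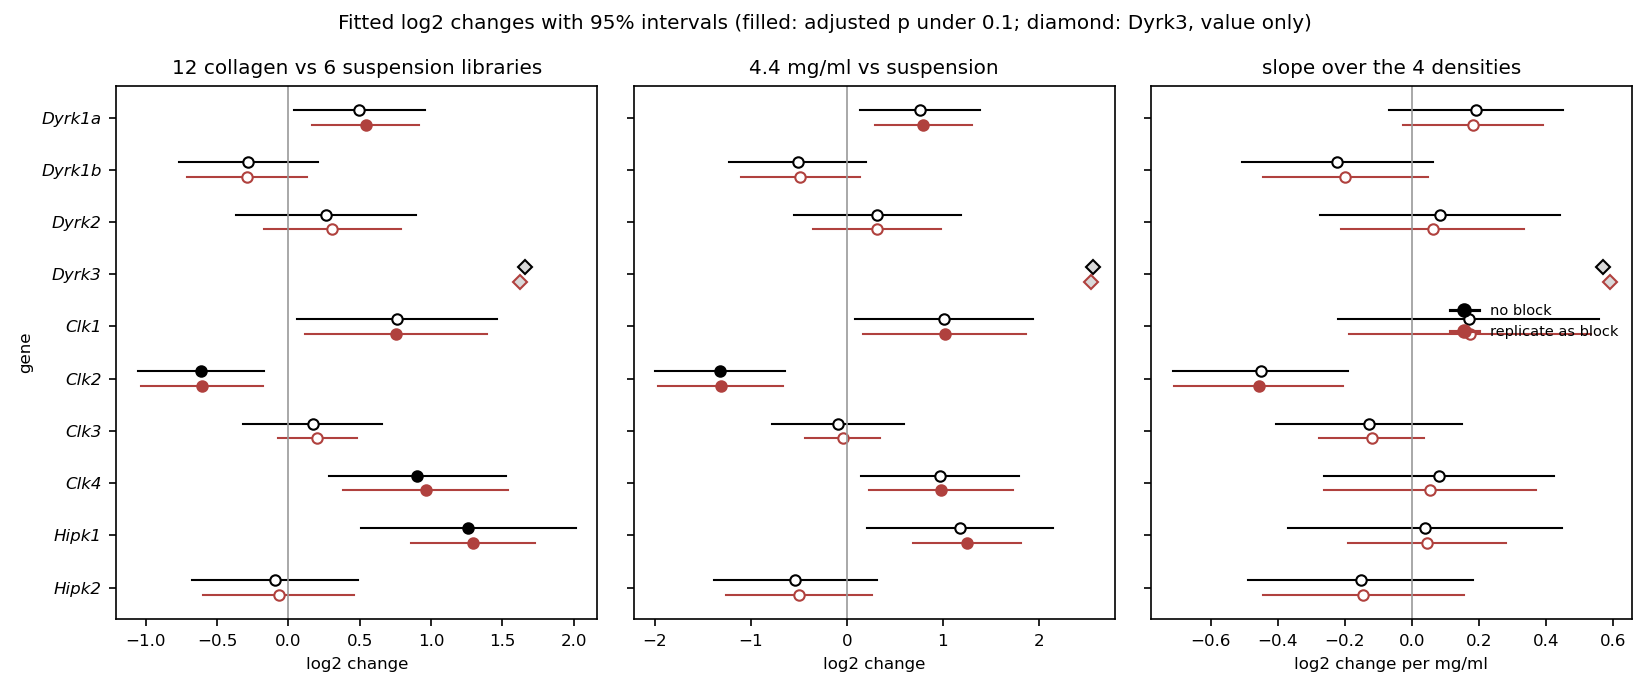
Fitted log2 difference of each member (x axis) with its 95% interval between all gels and suspension, between 4.4 mg/ml and suspension, and per mg/ml of collagen, with (red) and without (black) the replicate block; filled points passed an adjusted p of 0.1, and Dyrk3 is drawn as a diamond without a test. Hipk1 at 1.26 and Clk4 at 0.90 lie to the right of 0 and Clk2 at -0.61 to the left in the first panel, and only Clk2 passes in the black fits of the second.

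As a share of the summed CPM per kilobase of the 4 CLK genes, Clk2 held 21.9% ± 2.94 (SD, n = 6) in suspension and 16.7%, 12.7%, 11.2% and 7.66% on average in gels of rising density. Its suspension libraries ran from 18.4% to 27.3% and the densest gel from 6.10% to 9.68%, with no overlap. Clk1 held 24.3% ± 7.82 in suspension and 39.9% ± 5.60 (SD, n = 3) at 4.4 mg/ml. Clk4 held 10.3% ± 2.10 and 17.4% ± 2.26 in the same groups. The sum of the 4 was 20.2 ± 7.05 CPM per kilobase in suspension and 24.0 ± 7.82 at 4.4 mg/ml, a difference within the SD of either. At 2.6 mg/ml the sum was higher, at 31.1 ± 9.38 (SD, n = 3). Clk2 itself averaged 20.6 CPM at that density and 23.1 CPM in suspension. Its lower share at 2.6 mg/ml thus went mainly with a higher sum of the 4.

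**Figure D3:**
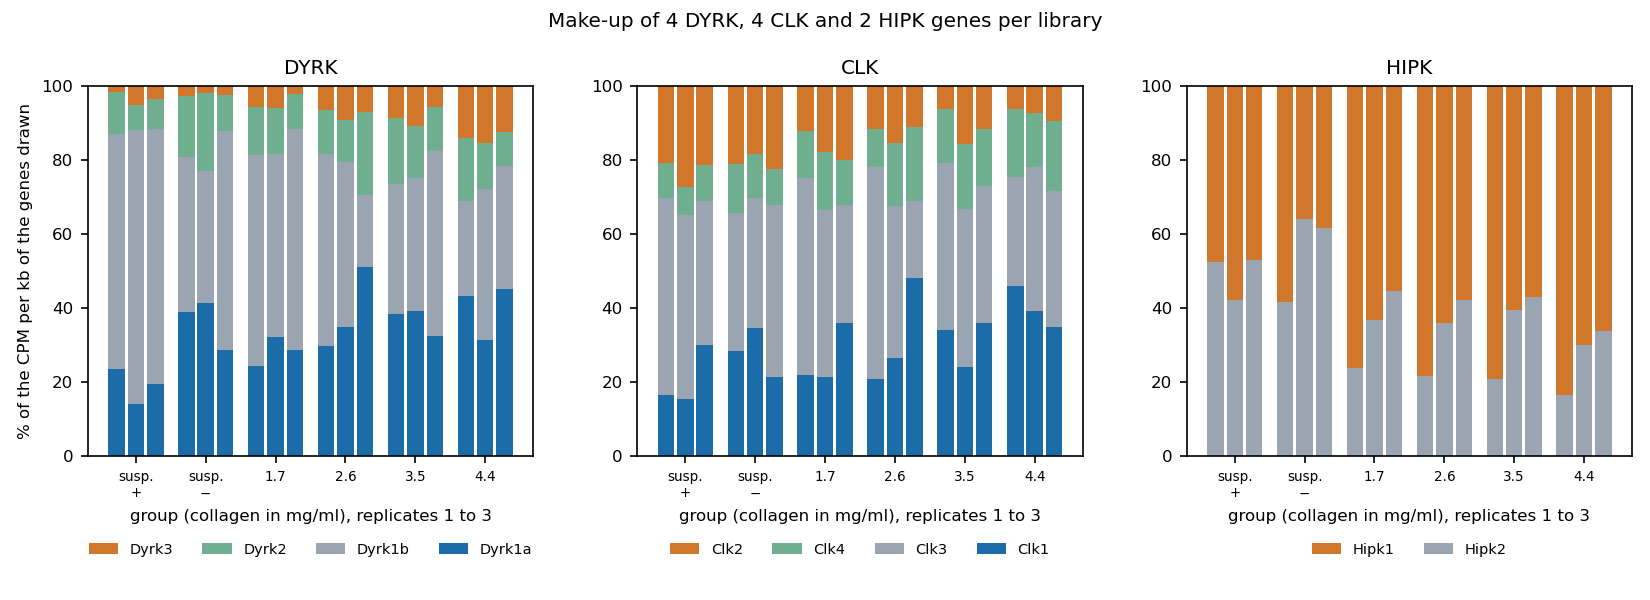
Share held by each gene of the summed CPM per kilobase of exon of 4 DYRK genes, 4 CLK genes, and Hipk1 with Hipk2 (y axis, percent from 0 to 100) in every library, with replicates 1 to 3 side by side in each group (x axis, collagen in mg/ml). The top segments show Dyrk3 growing from 1.57% to 5.02% in suspension to 12.5% to 15.2% at 4.4 mg/ml, Clk2 shrinking from 18.4% to 27.3% to 6.10% to 9.68%, and Hipk1 growing.

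Across the 4 densities, 0 of the 9 relatives had a slope that passed in edgeR without the block, where 0.00722% of all genes passed. At an unadjusted p under 0.05 there was 1, Clk2. Its log2 slope per mg/ml was -0.45 ± 0.12 (SE), with an adjusted p of 0.392, and all 3 replicates sloped down, by -0.29, -0.44 and -0.61. With the replicate block the slope of Clk2 was -0.46 with an adjusted p of 0.0960, beside 1.45% of all genes, and it passed in 6 of 18 such fits that each left out 1 library. In DESeq2 without the block it passed with an adjusted p of 0.0720, beside 0.918% of all genes. None of the 8 other relatives passed in either edgeR fit or in either DESeq2 fit.

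Between the end densities, 4.4 and 1.7 mg/ml, 0 of the 9 passed in edgeR, with the block or without it, and 0.00722% of all genes passed without it and 1.73% with it. DESeq2 without the block gave 0 of the 9 too, beside 1.20% of all genes, and with it Clk2 passed at an adjusted p of 0.0348, beside 6.63%. In the fit without the block Clk2 had the only unadjusted p under 0.05, with a log2 difference of -1.14 and an adjusted p of 0.420. With the block Dyrk1a had one too, of 0.0392. In the loosest gel 0 of the 9 passed against suspension in edgeR without the block, beside 0.0361% of all genes, and 0 had an unadjusted p under 0.05. With the block in edgeR 0 passed too, and Hipk1 had an unadjusted p of 0.00654 and an adjusted p of 0.139. The share of all genes that passed in that blocked comparison is not given here. DESeq2 without the block gave 0 there too, beside 1.13%, and with it Hipk1 passed at an adjusted p of 0.0545, beside 8.57%. At 2.6 mg/ml Hipk1 and Clk4 passed, the latter at 1.28 with an adjusted p of 0.0783, beside 7.87% of all genes. Neither passed there without replicate 2 or 3 of that gel or without replicate 2 of the suspension titled with CCL19. At 3.5 mg/ml 0 of the 9 passed, beside 4.90%, and Hipk1 and Clk2 had unadjusted p of 0.0179 and 0.0201. There too DESeq2 without the block gave 0, beside 10.5%, while with the block in edgeR Hipk1 and Clk2 passed, beside 18.4%. Clk2 was then at -0.80 with an adjusted p of 0.0954, and this call held in 8 of 18 fits that each left out 1 library. These comparisons share the 6 suspension libraries and are not independent of each other.

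With the replicate block in edgeR, further relatives passed at single densities. Some other fits without the block also gave more passes at 4.4 mg/ml, as listed in the closing section. At 2.6 mg/ml Dyrk1a was at 0.72 with an adjusted p of 0.0520 and Clk1 at 1.12 with an adjusted p of 0.0760, beside 21.6% of all genes. These calls held in 14 and 13 of 18 fits that each left out 1 library, and replicate 3 of that gel was among the libraries on which both rested. At 4.4 mg/ml Dyrk1a was at 0.80 with an adjusted p of 0.0225, Clk1 at 1.02 with 0.0743 and Clk4 at 0.98 with 0.0547, beside 31.9% of all genes. The Dyrk1a call held in all 18 such fits, with an adjusted p up to 0.0995. The Clk1 and Clk4 calls held in 15 and 16, and both were lost without replicate 1 of that gel or replicate 2 of the suspension titled with CCL19.

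When any difference among the 6 groups was tested, 0 of the 9 relatives passed in edgeR without the block, beside 4.90% of all genes. With the block Dyrk1a, Clk2 and Hipk1 passed, beside 24.3%, and in DESeq2 without it Clk2 and Hipk1 passed, beside 14.6%. Between the 2 suspension groups 0 of the 9 passed, as did 0 of all genes in edgeR with or without the block, and DESeq2 without the block gave 0 as well. Without the block Dyrk1b was the only member with an unadjusted p under 0.05 there, and with it Dyrk1a had one of 0.0397 as well.

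The relatives were also ranked by how closely they tracked Dyrk3 from library to library. Pearson's r was taken over log2 CPM in 18 libraries after the mean of each replicate was removed. All values share the same libraries and normalisation, and r is given as a description. Over all tested genes the median r with Dyrk3 was 0.00 and the highest 10% began at 0.585. Hipk1 had the highest value of the relatives at 0.687, and 5.50% of genes were more like Dyrk3. Clk4 at 0.541, Dyrk1a at 0.517 and Clk1 at 0.460 followed, with 12.5%, 13.7% and 17.4% of genes above them.

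Dyrk2 at 0.268 and Clk3 at 0.138 lay above the middle of all genes, with 31.2% and 40.3% of genes above them. Hipk2 at -0.175 and Dyrk1b at -0.341 lay below the middle, with 61.1% and 71.3% of genes above them. Clk2 at -0.696 was among the genes least like Dyrk3, with 92.5% of genes above it. Within the 12 gel libraries alone the order changed. Dyrk1a then had the highest r, at 0.831, while Hipk1 fell to 0.446 and Clk2 stayed at -0.729. The r of Hipk1 with Dyrk3 was therefore lower among the gels than over all libraries, and that of Dyrk1a higher. Of the relatives, only Dyrk1a lay among the 10% of genes most like Dyrk3 in the gel libraries, and only Hipk1 did over all libraries. The share of genes above each r in the gel libraries is not given here, so the sizes of r are not compared further between these sets.

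**Figure D4:**
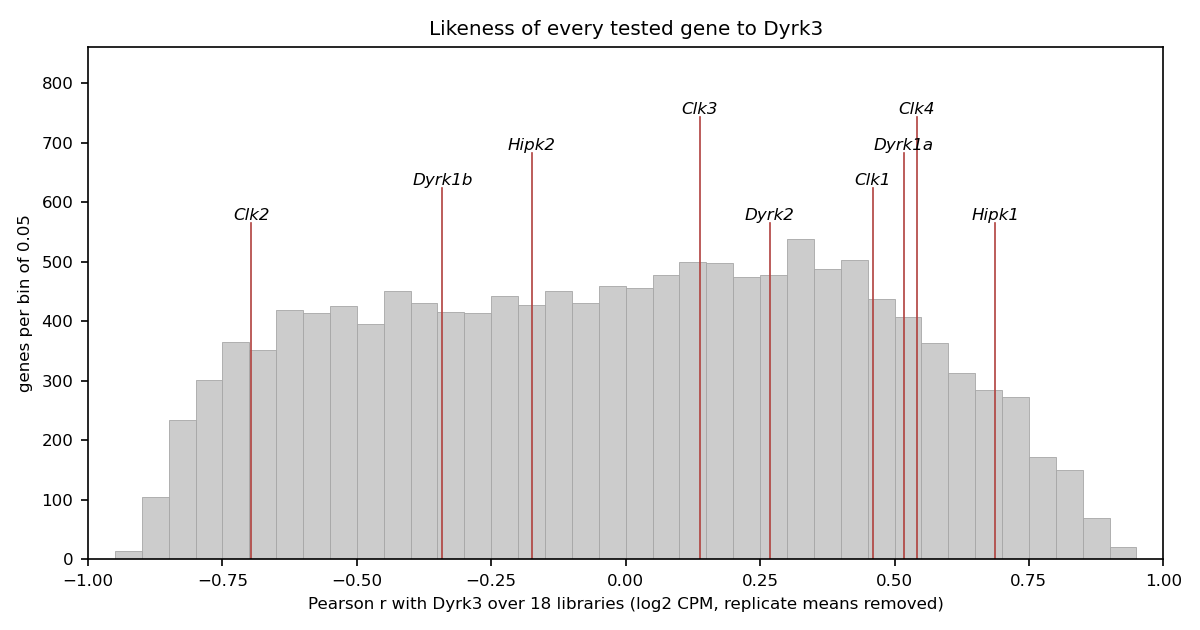
Number of tested genes (y axis) by Pearson's r with Dyrk3 (x axis, bins of 0.05, 18 libraries, replicate means removed), with a line at each relative. Hipk1 lies at 0.687 on the right and Clk2 at -0.696 on the left, and the other 7 lie between -0.341 and 0.541.

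The 5 genes most like Dyrk3 were not kinases of these families. They were Gzmm (a granzyme protease, r = 0.935), Il1f9 (an interleukin of the IL-1 family, 0.931), Trim69 (a RING-finger protein, 0.930), Phf23 (a PHD-finger protein, 0.923) and Cited2 (a transcriptional coregulator, 0.920). Phf23, the most abundant of them, averaged 106 CPM in suspension and 157, 174, 191 and 277 CPM in gels of rising density.

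Among themselves, Dyrk1a, Dyrk2, Clk1, Clk4 and Hipk1 tracked each other over the 18 libraries, with r from 0.682 to 0.903 over their pairs. Of all pairs of tested genes, 4.63% were at least as alike as the least alike of these. The 5 were grouped by their r in these same libraries, so that share is no background for the group. Hipk2, left out of the group, had an r of 0.701 with Dyrk2 and of 0.479 to 0.601 with the rest of it. Clk1 and Clk4 had an r of 0.903, Dyrk2 and Clk1 0.878, Dyrk1a and Clk4 0.870, and Clk4 and Hipk1 0.838. Dyrk1b ran against that group, with r of -0.772 to Dyrk1a and -0.706 to Clk4. The 5 have the lowest GC content of the 10 members, at 38.8% to 48.2% of exon bases, and Dyrk1b the highest, at 62.8%. The mitochondrial share of counts was 0.832% to 2.90% in the gels and 0.583% to 1.68% in suspension. The part of either in these correlations was not tested. The single library at 2.6 mg/ml, replicate 3, had the highest value of the 18 for Clk1, Clk4 and Dyrk2 and the lowest for Dyrk1b. Dyrk3 in that library, at 5.17 CPM, was the lowest of its own density. Dyrk1a and Hipk1 were highest elsewhere, at 103 CPM in replicate 1 at 4.4 mg/ml and 336 CPM in replicate 1 at 3.5 mg/ml. How far the r values of the group rest on replicate 3 at 2.6 mg/ml was not tested.

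The closest kinases outside the members, the related HIPK kinases and the SRPK and PRP4 kinases that also phosphorylate SR proteins, gave 1 pass among the 4 that could be tested. Prpf4b, a kinase of the spliceosome, was higher in gels by 0.96 ± 0.30 on the log2 scale, at 45.5 ± 22.2 CPM (SD, n = 12) against 24.3 ± 12.0 (SD, n = 6), with an adjusted p of 0.0403. Hipk3 had a log2 difference of 0.66 with an adjusted p of 0.110, and of 0.63 with an adjusted p of 0.0474 with the block. Srpk1 at -0.10 and Srpk2 at -0.01 did not pass, with adjusted p of 0.688 and 0.977. Hipk4 and Srpk3 were too low to be tested, at up to 26 and 4 counts, and Dyrk4 was not analysed here.

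Of 19 known partners and substrates of DYRK and HIPK kinases, 3 rose, 1 fell and 15 did not pass, with a median log2 difference of 0.20 over the 19, beside 7.78% of all genes higher and 12.4% lower. Akt1s1, the mTORC1 inhibitor PRAS40 that DYRK3 phosphorylates, rose by 0.76 ± 0.18 (SE) with an adjusted p of 0.0133. Siah2 and Wsb1, ubiquitin ligase genes of the families that degrade HIPK2, rose by 1.31 and 1.04 with adjusted p of 0.00476 and 0.0595. Nfatc1, a transcription factor that DYRK kinases help to export from the nucleus, fell by 0.88 on the log2 scale with an adjusted p of 0.0176. That value was no longer past the threshold with GC and length offsets (adjusted p = 0.129). Pcm1, a centriolar satellite protein and known DYRK3 substrate, had a log2 difference of 0.17 with an adjusted p of 0.744. With the block 7 rose and 3 fell, beside 15.6% and 19.3% of all genes.

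Of 12 tested SR protein genes, the substrates of CLK kinases, 2 rose, 0 fell and 10 did not pass, with a median log2 difference of 0.45, beside the same 7.78% and 12.4% of all genes. Srsf6 rose by 0.83 ± 0.17 (SE) from 72.7 ± 15.0 CPM in suspension to 129 ± 31.4 CPM in the gels, with an adjusted p of 0.00501. Srsf11 rose by 0.92 ± 0.22 with an adjusted p of 0.0127. With the block 4 of the 12 passed, all higher, beside 34.8% of all genes. These are transcript levels, and kinase activity and phosphorylation were not measured in these libraries.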

How the data were processed

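RNA sequencing libraries (TruSeq stranded mRNA, single reads of 50 bases) were aligned by the authors with STAR 2.7.0f to mouse GRCm38. The deposited matrix holds raw read counts per Ensembl gene for 18 samples. The counting tool and its handling of strand and of multiple matches are not given in the sources used here. All 18 libraries entered 1 fit in edgeR 4.0.16 (R 4.3.3) with filterByExpr, TMM scaling and the quasi-likelihood test over 13844 genes, with Benjamini-Hochberg adjustment and a threshold of 0.1. Log2 CPM used a prior count of 2. Intervals are at 95% and cover the spread between libraries. The fits were run on simulated counts with less spread than these libraries and no difference between replicates. Of 200 genes changed, 180 to 197 were recovered, beside 15 to 32 false calls, for gels against suspension and the density trend. Being easier than the real data, the simulation does not give the error rate of the calls above. Alternatives were DESeq2 1.42.0, its size factors, no filter, GC and length offsets (loess span 0.5), a threshold of 0.05, and leaving out replicates or single libraries. Same-numbered libraries of different groups deviated together (mean r = 0.434, lowest -0.149, against -0.214 for other pairs), and the pairing comes from the library names. No 2 libraries among 153 pairs were identical. Positions, exon lengths and GC content came from GENCODE vM21. Named genes are the members, the closest kinases, up to 3 per direction of each other list past the threshold with 1 sign in 3 replicates, and the 5 genes most like Dyrk3. Pcm1 is named outside that rule, chosen after its value was seen. Counts of members that passed leave out Dyrk3. Members and lists were chosen with earlier results of these data known.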

Additional observations from a re-analysis of the deposited data

Results flagged for a closer look

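Hipk2 had 1 suspension library far from the other 5. Replicate 2 titled without CCL19 read 176 CPM, the next library 85.1 CPM and the lowest 35.3 CPM, so that the gap took 0.646 of the range over 6 libraries. The 10 members were examined in this way in the suspension libraries, and chance marks about 1 in 20 such groups. The same library was also the highest of the 6 for Dyrk2, at 28.4 CPM, and, outside the members, for Hipk3, Prpf4b, Srpk1 and Srpk2, and it was not the highest for the other 8 members.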

How the results depend on the processing

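Counts here are of the 9 relatives, without Dyrk3, that passed the threshold. The share of all genes that passed moved with the fit as well. For any difference it was 4.90%, against 24.3% with the replicate block and 14.6% in DESeq2 without it. For all gels against suspension it was 20.2%, against 34.8% with the block and 37.4% with offsets plus the block. Shares are not given here for every fit, so a larger count alone is not a result about these kinases. For any difference among the groups the count was 0, against 3 with the replicate block, 2 and 7 in DESeq2 without and with it, 3 with no filter and 4 with GC and length offsets plus the block. For all gels against suspension it was 3, against 5 with the block, 5 in both DESeq2 fits, 5 with offsets plus the block, 1 at a threshold of 0.05, 0 to 3 without each replicate (0 without replicate 2), 2 to 4 without single libraries and 3 to 6 without single libraries in the block. For the density trend it was 0, and 1 with the block, in both DESeq2 fits and with offsets plus the block. For 4.4 against 1.7 mg/ml it was 0, and 1 in DESeq2 with the block and with offsets plus the block.

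Against suspension, 1.7 mg/ml gave 0, and 1 in DESeq2 with the block and with offsets plus the block. At 2.6 mg/ml the count was 2, and 4 with the block, 5 in DESeq2 with it, 5 with offsets plus the block, 1 with offsets alone, at a threshold of 0.05 or with only the compared groups in the fit, 0 to 4 without each replicate and 0 to 3 without single libraries. At 3.5 mg/ml it was 0, and 2 with the block, 3 in DESeq2 with it, 3 with offsets plus the block and 1 with no filter. At 4.4 mg/ml it was 1, and 5 with the block, 5 in both DESeq2 fits, 3 with DESeq2 size factors, 3 with no filter, 5 with offsets, 6 with offsets plus the block, 0 to 2 without each replicate (0 without replicate 2) and 1 to 4 without single libraries. In the block, leaving out single libraries gave 1 to 7 for any difference, 0 to 1 for the trend, for 4.4 against 1.7 mg/ml, at 1.7 mg/ml and between the suspension groups, 1 to 6 at 2.6, 0 to 3 at 3.5 and 3 to 5 at 4.4 mg/ml. Those blocked fits were chosen after seeing the data.

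The relatives among the 10% of genes most like Dyrk3 were 1, and 3 by Spearman's rho or with replicate means kept. The Dyrk3 share at 4.4 mg/ml was 13.9%, and 8.21% without division by length. Of the closest kinases 1 passed, and 2 with the block, in DESeq2 and with offsets. Partners gave 4, 10 with the block and 7 in DESeq2, and SR proteins gave 2, and 4 with the block.

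Directions turned for small differences. Hipk2 between gels and suspension was 0.194 with offsets, 0.199 with offsets plus the block, -0.342 to 0.227 without each replicate, and up to 0.239 and 0.241 without single libraries, unblocked and blocked. Slopes turned without replicate 1 for Clk1 (-0.034 to 0.439 without each replicate) and Clk4 (-0.063 to 0.184), and without a single library for Dyrk2 (-0.023), Clk4 (-0.033, blocked -0.012) and Hipk1 (-0.083, blocked -0.019). Hipk1 at 4.4 against 1.7 mg/ml reached -0.055 and Dyrk2 at 4.4 mg/ml -0.003 without a single library. Clk2 at 1.7 mg/ml was 0.013 with offsets, -0.454 to 0.311 without each replicate and up to 0.050 without a single library in the block. At 2.6 mg/ml it was 0.175 with offsets, 0.145 with offsets plus the block, -0.498 to 0.323 without each replicate, and up to 0.008 and 0.091 without single libraries, unblocked and blocked. Clk3 at 4.4 mg/ml was 0.023 in DESeq2 with the block, 0.229 with offsets, 0.262 with offsets plus the block, -0.295 to 0.275 without each replicate, and up to 0.205 and 0.092 without single libraries, unblocked and blocked. Of the other values of single genes, 746 kept direction and side of the threshold, 97 newly passed and 23 no longer passed. The cause was not tested. Dyrk3 rested on 19 to 287 counts per library, the least of the members.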
